A study of Mus musculus with 4 samples.

Results

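A set of complement genes is described here in alveolar macrophages (AM) of wild-type (WT) and *Trem-2*-/- mice: *C1qa*, *C1qb*, *C1qc*, *C1ra*, *C1s*, *C2*, *C4b*, *Cfb* and *Cfp*. They are 9 of the 19946 genes measured, and 8 were read by the probe set that the platform annotation assigns to that symbol alone. The member *C1s* was found only through its RefSeq synonym *C1s1*, by the same rule, and is given under that name. Each of the 9 had a single such probe set, so no choice between probe sets was needed.

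The cells were recovered by bronchoalveolar lavage from mice of 8 to 10 weeks, without infection or treatment, and their RNA, pooled over mice, was read on Affymetrix arrays for mouse genes. The WT group comprised 2 arrays of C57/Blk6 AM, and the *Trem-2*-/- group comprised 2 arrays of AM from knockout mice backcrossed 10 times to C57/Blk6. The WT animals had been purchased and were not described as littermates of the knockouts. How many mice made up a pool was not given, so the p-values below measure the spread between arrays, part of which may be technical.

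Complement is a set of plasma and tissue proteins that tag particles for uptake and can lyse cells. In the classical pathway, C1q, assembled from A, B and C chains, binds a target and activates the proteases C1r and C1s, which cleave C4 and C2 into a convertase. The alternative pathway uses factor B for its own convertase, which properdin stabilises. Most circulating components are made by hepatocytes, whereas C1q and properdin come mainly from myeloid cells.

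Values are log2 intensities after robust multi-array averaging (RMA), and a change is the mean of the *Trem-2*-/- arrays minus the mean of the WT arrays. Levels of different genes were not compared, because probe sets differ in their response. A change was called where limma gave an adjusted p below 0.05 after Benjamini-Hochberg correction over the 19946 genes. The lower quartile of all probe sets lay between 4.39 and 4.40 on each of the 4 arrays and serves as a mark of low signal. *Trem2*, the targeted gene, read 9.58 and 9.74 in WT and 7.64 and 7.45 in *Trem-2*-/- AM, which matches the labels, and its change was -2.11 (limma adjusted p = 0.00090). Of 18 alveolar macrophage markers 15 were measured, none below the lower quartile of the arrays, and their summed level was 15.31 to 15.33 in WT and 15.30 to 15.34 in *Trem-2*-/- AM. That sum is carried by the brightest genes: in *Trem-2*-/- AM 6 of the 15 stood higher without overlap and 6 lower. Among all 19946 genes, 3467 stood higher and 5067 lower without overlap.

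Of the 9 complement genes, 4 were called higher in *Trem-2*-/- AM (*C1qa*, *C1qb*, *C1qc* and *Cfp*) and none lower. Among all genes, 0.431% were called higher and 0.135% lower. The remaining 5 were not called, 4 of them with both knockout arrays above both WT arrays. In all, 8 of the 9 had groups that did not overlap, higher in *Trem-2*-/-, beside 17.4% of all genes. The median change of the 9 was 0.91, against -0.02 over all genes tested.

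**Figure D1:**
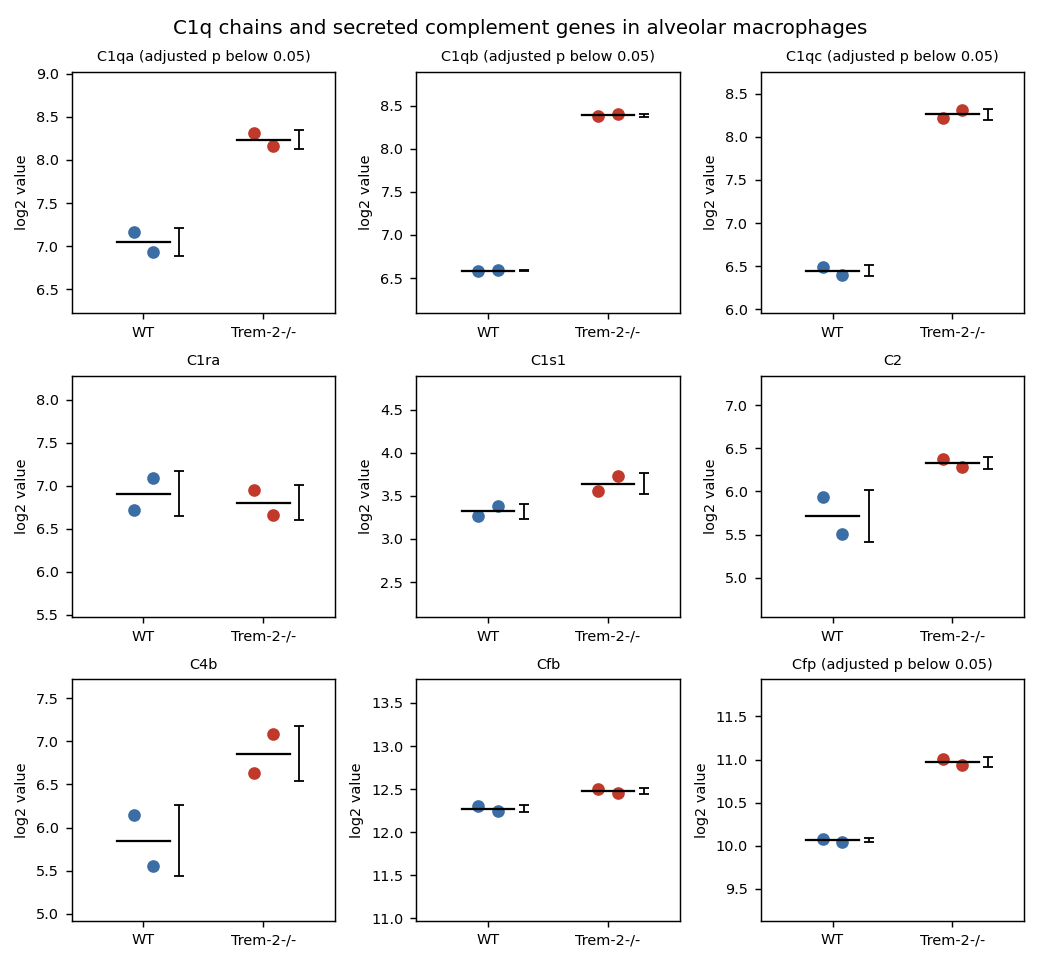
Log2 RMA value of each of the 9 genes on each of the 4 arrays, with 1 point per array, a bar at the mean of each genotype and an error bar of 1 SD (n = 2). The 3 C1q chains and *Cfp* are separated by 0.91 to 1.81 between genotypes, whereas the arrays of *C1ra* overlap.

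The C1q chains carried the largest changes of the set. *C1qb*, the B chain, read 6.58 and 6.59 in WT and 8.38 and 8.40 in *Trem-2*-/- AM. The genotypes were far apart, and arrays of a genotype differed by little. Its mean rose from 6.59 ± 0.01 to 8.39 ± 0.02 (SD, n = 2 each), a change of 1.80 ± 0.07 (SE) or 3.49-fold (limma adjusted p = 0.00049). *C1qc*, the C chain, read 6.49 and 6.40 in WT and 8.22 and 8.31 in *Trem-2*-/- AM, again without overlap. It rose by 1.81 ± 0.08 (SE), or 3.52-fold (limma adjusted p = 0.00067). Among all genes, these were ranks 12 and 11 from the largest increase.

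*C1qa*, the A chain, read 7.16 and 6.93 in WT and 8.31 and 8.16 in *Trem-2*-/- AM. The knockout arrays were both higher, but each genotype spread more than for the other two chains. The A chain rose by 1.19 ± 0.11 (SE), or 2.28-fold (limma adjusted p = 0.012), rank 29 of all genes. This call was less firm than those of the B and C chains: leaving out 1 array at a time, *C1qa* passed the threshold in 1 of 4 fits (without WT replicate 1), with changes of 1.07 to 1.30 and limma adjusted p between 0.027 and 0.090. *C1qb* and *C1qc* passed in 4 of 4 such fits, with changes of 1.79 to 1.81 and 1.77 to 1.86. In RNA of a whole cell sample, more cells that transcribe C1q and more C1q RNA per cell cannot be told apart.

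The chains were then set against each other on each array, after centring each pair on WT, to ask whether their readings rose by the same amount. For *C1qc* minus *C1qa* the *Trem-2*-/- arrays stood at 0.51 and 0.75 and the WT arrays at -0.07 and 0.07. The reading of the C chain thus rose by 0.63 more, a ratio of folds of 1.54. For *C1qb* minus *C1qa* they stood at 0.53 and 0.70 against -0.12 and 0.12, a difference of 0.61. In both pairs the genotypes did not overlap, yet with 2 arrays against 2 the exact two-sided permutation test cannot go below 0.333, the value it gave for each (0.50 after Benjamini-Hochberg over the 3 pairs). *C1qb* minus *C1qc* differed by -0.01 with overlapping arrays (exact permutation p = 1.0). Because probe sets differ in their response, unequal changes of these readings need not mean unequal changes of the RNA. The chains are encoded side by side on chromosome 4 in the order *C1qb*, *C1qc*, *C1qa*.

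**Figure D2:**
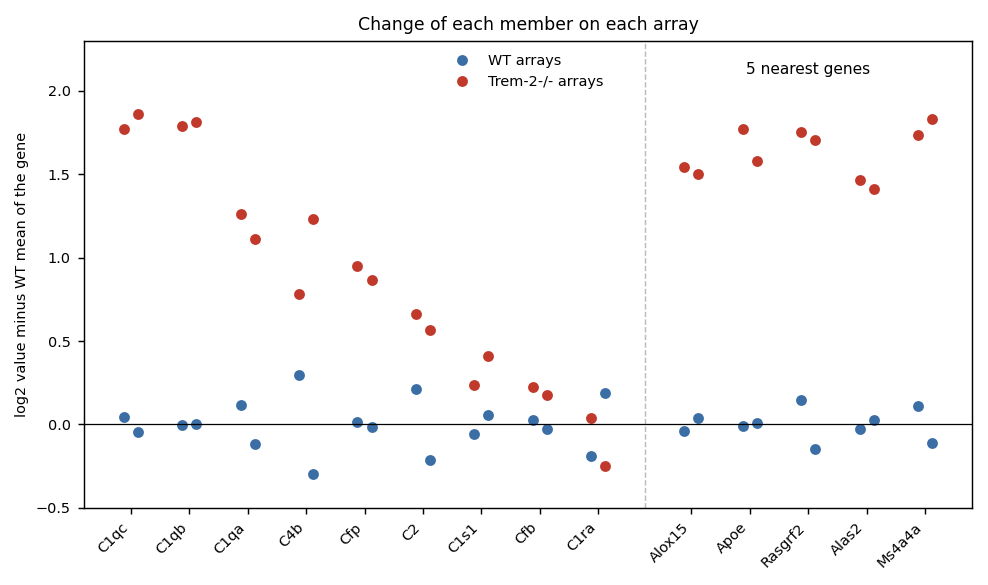
Log2 value minus the gene's WT mean on each array, for the 9 complement genes and, beyond the dashed line, for the 5 genes nearest to the mean C1q profile. *C1qb* and *C1qc* coincide near 1.8, *C1qa* lies at 1.11 and 1.26, and *Cfb* at 0.18 and 0.22.

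The RefSeq sequences before the start sites of *C1qb*, *C1qc* and *Cfp* are printed because these are the called genes of the set for which one was at hand. Such windows were found for 5 of the 9 genes, the others being *C1ra* and *C1s1*. Each window is the 250 bases before the start on assembly GRCm38.p6, read 5′ to 3′ along the gene's strand, which is the minus strand for all 3: chr4:136886201-136886450 for *C1qb*, chr4:136892915-136893164 for *C1qc* and chrX:20931556-20931805 for *Cfp*. Capitals mark exact matches on either strand to GAGGAA, a core bound by PU.1, to TGCTGA, a MAF half-site, and to AGGTCA, a nuclear receptor half-site. These factors are known in macrophages, and the letters alone do not show binding.
C1qb: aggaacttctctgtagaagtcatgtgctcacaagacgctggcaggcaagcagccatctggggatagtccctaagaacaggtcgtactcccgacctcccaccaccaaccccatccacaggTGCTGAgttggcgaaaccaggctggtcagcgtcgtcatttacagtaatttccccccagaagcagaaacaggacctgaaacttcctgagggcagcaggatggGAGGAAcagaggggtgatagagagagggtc
C1qc: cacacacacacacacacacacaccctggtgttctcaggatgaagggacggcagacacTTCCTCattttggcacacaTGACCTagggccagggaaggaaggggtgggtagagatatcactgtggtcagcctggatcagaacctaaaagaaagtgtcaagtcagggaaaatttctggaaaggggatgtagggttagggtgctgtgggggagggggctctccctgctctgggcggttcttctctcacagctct
Cfp: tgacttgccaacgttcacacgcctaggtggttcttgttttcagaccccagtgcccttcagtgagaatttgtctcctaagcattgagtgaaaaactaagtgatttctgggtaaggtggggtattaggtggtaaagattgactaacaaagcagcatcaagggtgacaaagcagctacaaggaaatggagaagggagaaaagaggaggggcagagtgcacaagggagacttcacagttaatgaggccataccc
In the *C1qb* window, TGCTGA began 131 bases and GAGGAA 30 bases before the start. In the *C1qc* window, GAGGAA and AGGTCA lay on the opposite strand, with their matches beginning 193 and 174 bases before the start. No match overlapped another, and the windows of *Cfp*, *C1ra* and *C1s1* held none of the 3 motifs. Of 32817 promoter windows of the same length, 23.3% held GAGGAA, 16.1% TGCTGA and 14.0% AGGTCA, so these short matches are common. A direct repeat of AGGTCA with 1 base between, the form that PPAR and RXR bind, was in none of the 6 windows of these genes and in 0.0335% of all windows. An exact match so rare is absent from nearly every window, so its absence here does not show that a site is lacking. The study cites earlier work for PPAR-δ sites in the C1q promoter, and inexact repeats were not searched. Its own evidence on PPAR-δ was functional: inhibitors lowered *C1qb* RNA in *Trem-2*-/- AM, and an activator raised it in WT AM. TREM-2 over-expression also lowered PPAR-δ activity in cell lines. The TATA box letters TATAAA, held by 12.4% of all windows, were in none of the 6 windows of these genes.

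The nuclear receptors and other factors known to drive C1q transcription showed no change in RNA past the threshold. Of 11 such genes 9 were measured, none was called, and their changes ran from -0.06 to 0.10 around a median of -0.01. *Ppard*, the receptor PPAR-δ, read 8.31 and 8.24 in WT and 8.28 and 8.25 in *Trem-2*-/- AM, with overlapping arrays. Its change was -0.01 with a 95% interval of -0.19 to 0.17 (limma adjusted p = 0.97). The study also reported no striking difference in its RNA or total protein. RNA does not measure the activity of a receptor, which was not tested here. *Pparg*, *Ppara*, *Rxra* and *Rxrb* differed by -0.02, -0.06, 0.02 and -0.06. The macrophage factors *Spi1* (PU.1), *Maf*, *Irf8* and the oxysterol receptor *Nr1h3* differed by 0.03, -0.01, 0.10 and 0.10. Several of these small values change sign when the arrays are rescaled or 1 is left out, as listed at the end.

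Neither gene for the proteases that C1q activates was called. *C1ra*, one of the mouse C1r genes, read 6.72 and 7.09 in WT and 6.95 and 6.66 in *Trem-2*-/- AM, with overlapping groups. Its change was -0.10 with a 95% interval of -0.47 to 0.27 (limma adjusted p = 0.84). A separate probe set shared by *C1rb* and *C1ra*, which cannot be given to either gene and was not tested, read 8.33 and 8.33 in WT and 8.36 and 8.40 in *Trem-2*-/- AM. *C1s1* read 3.26 and 3.38 in WT and 3.56 and 3.73 in *Trem-2*-/- AM, without overlap but below the lower quartile of the array in all 4 cases. Its difference of 0.32 (95% interval 0.10 to 0.55) did not pass (limma adjusted p = 0.28).

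*C4b* and *C2*, which supply the classical convertase, were higher on both knockout arrays without passing the test. *C4b* read 6.14 and 5.55 in WT and 6.63 and 7.08 in *Trem-2*-/- AM, the widest spread within a genotype among the 9 genes. Its difference was 1.01 ± 0.22 (SE), or 2.01-fold (limma adjusted p = 0.17), and between 0.71 and 1.30 when 1 array was left out. *C2* read 5.93 and 5.51 in WT and 6.38 and 6.29 in *Trem-2*-/- AM. Its difference was 0.61 ± 0.14 (SE), or 1.53-fold (limma adjusted p = 0.19), and between 0.40 (without WT replicate 2) and 0.83 (without WT replicate 1) when 1 array was left out. The WT arrays of both genes were farther apart than those of any C1q chain.

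Some of the other tests and gene sets called more of the convertase genes. *C4b* stayed uncalled with the replicate number as a block (limma adjusted p = 0.14), quantile normalization (0.19), median centring (0.14), mean probe sets (0.17) and all probe sets (0.47). *C2* was called only by the fit with a trend on intensity. SAM (significance analysis of microarrays), the permutation procedure named in the study's methods, at 5% false discoveries called *C4b* beside the chains and *Cfp*, 5 of the 9, where it called 0.857% of all genes higher. With robust variances and a trend on intensity, limma called 7 of the 9 higher, *C4b* (adjusted p = 0.0030), *C2* (0.017) and *Cfb* (0.0079) included, where 1.90% of all genes were called higher. With genes of a mean log2 value below 6 left out, limma called 5 of the 8 that remained, *C4b* included (adjusted p = 0.048), beside 1.92% of the 10783 genes then tested. The WT means of *C4b* and *C2* were 5.85 and 5.72, so both passed this filter only through the higher knockout arrays. The call of *C4b* there therefore adds no separate evidence of a rise.

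In the alternative pathway, properdin rose and factor B did not pass the test. *Cfp*, encoding properdin, on chromosome X, read 10.08 and 10.05 in WT and 11.01 and 10.93 in *Trem-2*-/- AM. Both genotypes were tight and well apart. It rose by 0.91 ± 0.07 (SE), or 1.88-fold (limma adjusted p = 0.0083). Leaving out any 1 array kept the change between 0.87 and 0.95 but took the limma adjusted p to between 0.052 and 0.082, so the call needed all 4 arrays. *Cfb*, encoding factor B, read 12.30 and 12.25 in WT and 12.50 and 12.45 in *Trem-2*-/- AM, near the upper end of the array's scale. The groups did not overlap, but the difference was 0.20 (95% interval 0.02 to 0.38, or 1.15-fold) and was not called (limma adjusted p = 0.39).

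**Figure D3:**
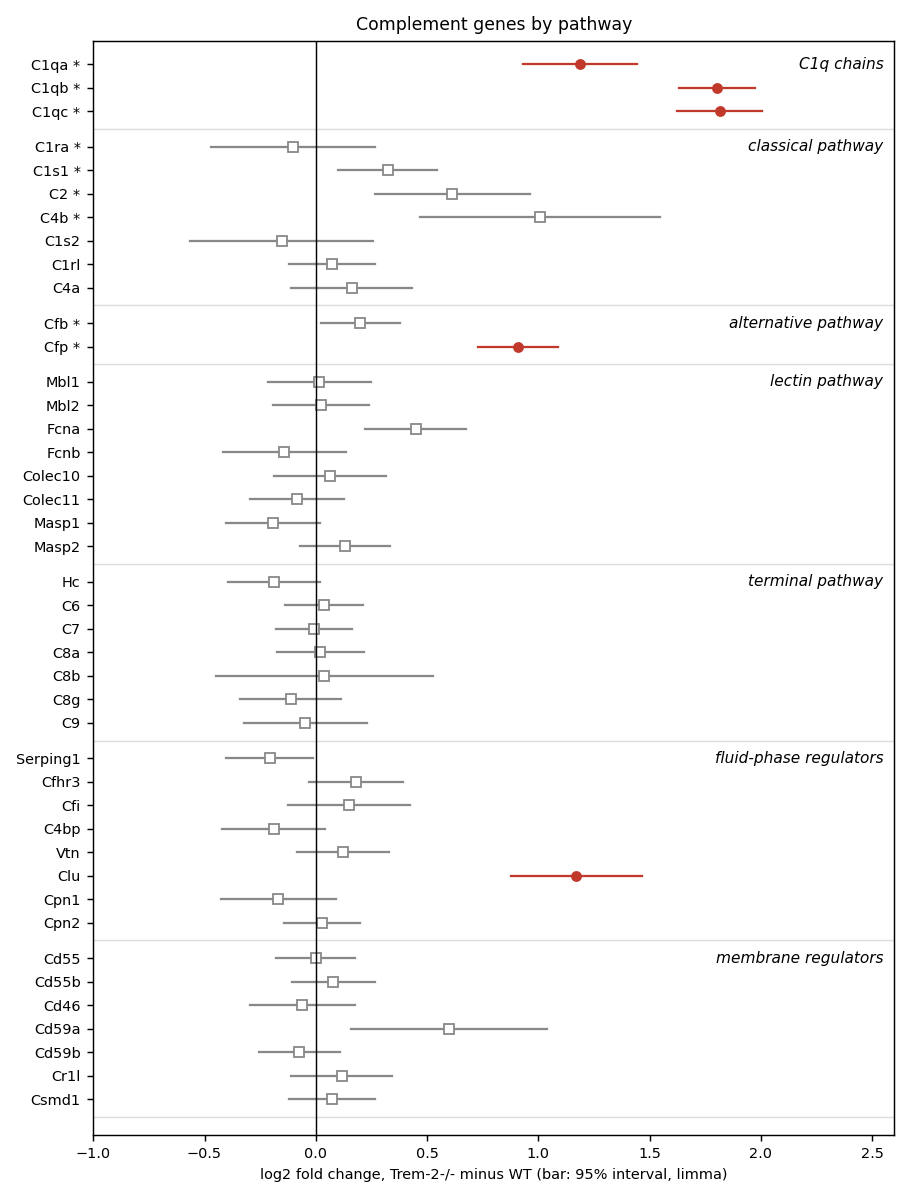
Change in log2 value (*Trem-2*-/- minus WT) of the 9 genes and the other measured complement genes, grouped by role, with 95% limma intervals, filled circles for called genes, open squares for the others and an asterisk at each of the 9. Among the others, *Clu* stands at 1.17 and the rest lie between -0.21 and 0.60.

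*C2*, *Cfb* and *C4b* lie on chromosome 17, as does *Trem2*. Of the 936 genes tested on that chromosome, 11 (1.18%) were called higher and 7 (0.748%) lower, against 0.431% and 0.135% of all genes. The MHC class II genes *H2-Aa*, *H2-Ab1* and *H2-Eb1* of that chromosome rose by 1.02, 1.09 and 1.20 (limma adjusted p = 0.0070, 0.0054 and 0.0045), whereas *Ppard* and *C4a*, also on it, differed by -0.01 and 0.16 and were not called. Loss of *Trem-2* and any allele carried along with it on chromosome 17 cannot be told apart in this design.

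Other complement genes were read beside the 9. Of 39 further genes listed for the classical, lectin and terminal pathways and for regulators, 33 were measured. Of these, 1 was called higher and none lower, beside 0.431% and 0.135% of all genes, with a median change of 0.02. Without overlap 10 stood higher and 5 lower, beside 3467 and 5067 of all 19946 genes. The one called was *Clu*, encoding clusterin, an inhibitor of the terminal complex. *Clu* read 6.59 and 6.93 in WT and 7.95 and 7.91 in *Trem-2*-/- AM, and rose by 1.17 (95% interval 0.88 to 1.46, or 2.25-fold, limma adjusted p = 0.020). It passed without either WT array (limma adjusted p = 0.036 and 0.016) and not without either *Trem-2*-/- array (limma adjusted p = 0.13 for both).

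None of the 3 other classical genes measured was called. *C4a*, the close relative of *C4b*, read 5.72 and 5.71 in WT and 5.72 and 6.03 in *Trem-2*-/- AM, whereas *C1s2* and *C1rl* differed by -0.15 and 0.07. *C4a* and *C4b*, like *C1s1* and *C1s2*, are closely related copies whose probes may take up RNA of each other. Of 8 lectin pathway genes none was called: *Fcna*, encoding ficolin A, had the largest difference, 0.45 (limma adjusted p = 0.16, but 0.032 with the intensity trend and 0.033 with low values left out), followed by *Masp1* at -0.19 and *Fcnb* at -0.14.

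The 7 terminal pathway genes, which encode the components of the membrane attack complex, included no call. *Hc*, encoding C5, differed by -0.19, *C8g* by -0.11 and *C9* by -0.05. Among the 8 fluid-phase regulators measured, *Serping1*, encoding the C1 inhibitor, differed by -0.21 (limma adjusted p = 0.41) and *C4bp* by -0.19. Of 7 membrane regulators none was called, the largest difference being 0.60 for *Cd59a* (limma adjusted p = 0.32), with *Cr1l* at 0.12 and *Cd55b* at 0.08. Omitting *Trem-2*-/- replicate 2 took the *Cd59a* difference to 0.31, and omitting replicate 1 took it to 0.88. Signal was low for many of these genes, since 10 of the 33 lay below the lower quartile on every array. *C3* and *Cfd* were not analysed here.

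The C1q domain occurs in many secreted proteins besides the chains themselves. Of 27 further genes of this family 26 were measured and none was called, with changes from -0.29 for *Otol1* to 0.28 for *Emilin2* around a median of -0.03. *Cbln3* stood at 0.26. *Emilin2* was called with the intensity trend (limma adjusted p = 0.028), and *Otol1* ran from -0.47 without WT replicate 2 to -0.12 without WT replicate 1.

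**Figure D4:**
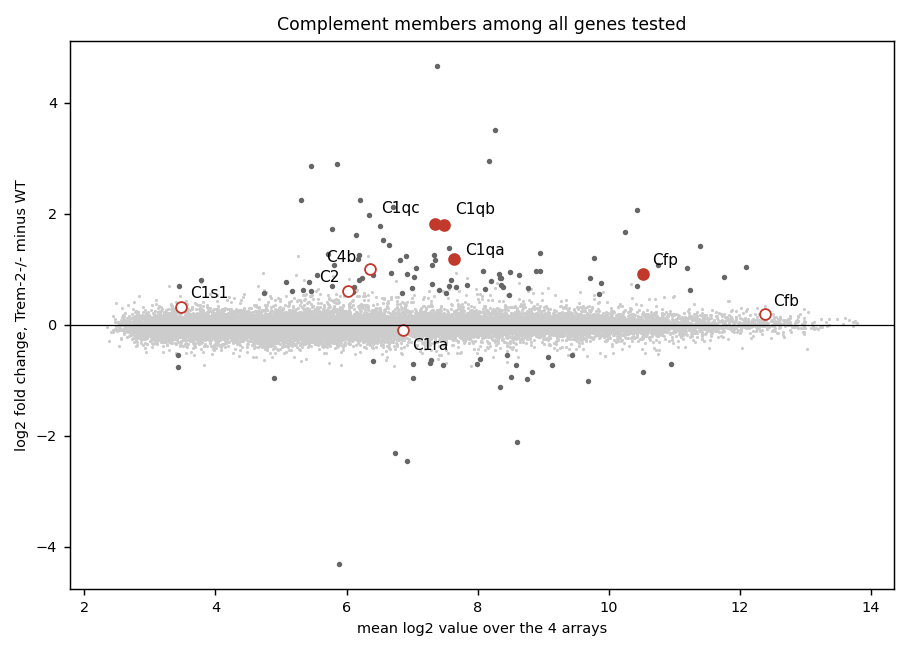
Change in log2 value (*Trem-2*-/- minus WT) against mean log2 value for all 19946 genes, with called genes in dark grey and the 9 complement genes named in red, filled where called. *C1qb* and *C1qc* lie near 1.8 and *C1ra* at -0.10, close to the bulk of the genes.

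The genes whose values across the 4 arrays most resembled the mean C1q profile were found by Euclidean distance of centred log2 values, a description over 4 arrays of which 2 share a genotype. They were *Alox15* (distance 0.154), *Apoe* (0.173), *Rasgrf2* (0.188), *Alas2* (0.204) and *Ms4a4a* (0.213), with changes of 1.52, 1.67, 1.73, 1.44 and 1.78. *C1qb* and *C1qc* themselves lay at 0.217 and 0.225 from this mean, *C1qa* at 0.434, *Cfp* at 0.698 and *C4b* at 0.759. *Apoe* also belongs to the markers of interstitial or monocyte-derived macrophages below.

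Markers of other cells that make complement were read beside these changes. Of the list for interstitial or monocyte-derived macrophages, cells that themselves express C1q, 19 of 23 genes were measured. Of these, 10 were called higher and none lower, beside 0.431% and 0.135% of all genes. The 10 called were *Apoe*, *Ccr2*, *Cd14*, *Cd74*, *Cx3cr1*, *H2-Aa*, *H2-Ab1*, *H2-Eb1*, *Pf4* and *Tmem176b*. The list's summed level ran from 14.09 to 14.11 in WT and from 14.71 to 14.74 in *Trem-2*-/- AM, and that of the C1q chains from 8.24 to 8.36 and from 9.88 to 9.89. Over the whole list, 16 of the 19 were higher in *Trem-2*-/- AM without overlap and 1 was lower, beside 3467 and 5067 of all 19946 genes. The lower one was *Lyve1* at -0.09, whereas the arrays of *Folr2* at -0.07 and *Maf* at -0.01 overlapped. *Cd163* lay below the lower quartile on every array. With 1 array left out, *Apoe*, *H2-Eb1*, *Pf4* and *Tmem176b* passed in 4 of 4 fits, *H2-Ab1* failed without *Trem-2*-/- replicate 1, *H2-Aa* failed without either *Trem-2*-/- array, and *Ccr2*, *Cd14*, *Cd74* and *Cx3cr1* passed in none. *Cd14* was also lost with the replicate number as a block (limma adjusted p = 0.057). The part of these cells in the rise of the C1q chains and *Cfp* was not tested.

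Hepatocyte and fibroblast markers, of cells that make C2, C4, factor B, C1r and C1s, showed no call. The 7 hepatocyte genes summed to 7.91 to 7.93 in WT and 7.83 to 7.88 in *Trem-2*-/- AM, and the 10 fibroblast genes to 9.07 to 9.13 and 9.005 to 9.08. Lung epithelial markers had 2 of 16 called higher and none lower, beside 0.431% and 0.135% of all genes. These were *Cldn18* at 1.23 and *Scgb1a1*, the club cell secretory protein, at 0.91. The list's summed level was 10.52 to 10.59 in WT and 10.84 to 10.85 in *Trem-2*-/- AM. The list went both ways, with 7 of the 16 higher and 5 lower without overlap, beside 3467 and 5067 of all 19946 genes. *Cldn18* failed without *Trem-2*-/- replicate 2, and *Scgb1a1* failed without any 1 array. The summed levels were 9.85 to 9.88 and 10.03 to 10.07 for 12 neutrophil genes, 8.84 to 8.90 and 8.71 to 8.83 for 8 dendritic cell genes and 8.40 to 8.43 and 8.41 to 8.52 for 9 lymphocyte genes, without a call in any. Higher and lower without overlap were 3 and 1 of the neutrophil genes, 1 and 3 of the dendritic cell genes and 1 and 0 of the lymphocyte genes. For fibroblast genes these counts were 1 and 4, and for hepatocyte genes 0 and 1, beside 3467 and 5067 of all 19946 genes. Of the 15 alveolar macrophage markers measured, *Car4* was called higher at 0.90 and *Fabp1* at 0.74, and none was called lower. The shares of all genes were 0.431% and 0.135%. Without overlap 6 stood higher and 6 lower, among the latter *Krt79* at -0.35 and *Siglecf* at -0.21, neither of them called. With 1 array left out, *Car4* passed only without WT replicate 2 and *Fabp1* in no fit. The part of epithelial or neutrophil RNA in the changes of the complement genes was not tested.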

How the data were processed

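The authors extracted RNA of pooled AM, hybridized it to Affymetrix mouse Gene 1.0 ST arrays and deposited log2 values normalized by RMA. According to the submitters' processing notes the build was mm9, and a version of RMA was not given. RMA equalizes the distributions of the arrays, so changes are relative to the bulk of genes. Scanner intensities were not used here. Genotype came from the sample labels.

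Probe sets with 1 annotated symbol (21797 of 35557) were kept, 21698 were matched to RefSeq genes (GRCm38.p6), and the brightest on average was taken where a gene had more than 1 (999 genes), without an expression filter. The two-sided moderated test of limma 3.58.1 (R 4.3.3) compared the genotypes, and p-values were adjusted by Benjamini-Hochberg over 19946 genes. The code was tested on simulated data. A summed level is the log2 of a list's summed linear values. Alternatives were SAM, the t-test, limma with a variance trend on intensity (robust), a replicate block, quantile normalization, median centring, a filter at a mean log2 of 6, mean probe sets, all probe sets and leaving out each array.

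The members and lists were chosen with earlier results of these data known. Named genes are the 9 members, *Trem2*, the called genes and the 3 largest changes of each complement list, *C3*, *Hc*, *Cfd*, *Serping1*, *C4a*, all measured C1q regulators, called markers and the 5 genes nearest the C1q profile. *Cd163*, *Lyve1*, *Folr2*, *Krt79* and *Siglecf* were named after their values were seen.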

Additional observations from a re-analysis of the deposited data

How the results depend on the processing

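With 2 arrays per genotype, precision is limited by their number, and low signal limits *C1s1*. *C1qb* and *C1qc* passed under SAM, an intensity trend, the replicate block, quantile normalization, median centring, the filter on low values, mean probe sets, all probe sets and each omitted array, and failed under the t-test with Benjamini-Hochberg adjustment. That t-test called 0 genes higher, 0 lower and 0 members, where the unadjusted one called 782 higher and 1052 lower, 5 members among the former. SAM called 171 genes higher. The intensity trend called 379 higher and 290 lower, 7 members among the former. Among genes of a mean log2 of at least 6, 207 were higher and 150 lower, and the members' median was 0.96. Testing all probe sets, where both the moderated variances and the adjustment drew on more of them, called 21 higher and 2 lower. It called 2 members (*C1qb* and *C1qc*) and lost *C1qa* (limma adjusted p = 0.18) and *Cfp* (0.14). Leaving out each array gave 22 to 43 genes higher, 4 to 7 lower, 2 to 3 members and a members' median of 0.71 to 0.92. Same-numbered arrays deviated from their group means with a correlation of -0.05 over 19946 genes, so the numbers were not taken to pair the pools. The replicate block called 98 higher and 31 lower and 4 members, and changed no member's call. Values of uncalled genes that changed sign were 0.0047 for *Maf* under quantile normalization and 0.0043 for *Ppard*, 0.0003 for *Pparg* and 0.0051 for *Maf* under median centring. With 1 array left out they ranged from -0.0623 to 0.584 for *Cbln3*, -0.0446 to 0.0211 for *Ppard*, -0.0651 to 0.0336 for *Pparg*, -0.289 to 0.0828 for *C1ra*, -0.424 to 0.117 for *C1s2*, -0.291 to 0.0080 for *Fcnb*, -0.161 to 0.0339 for *Ppara*, -0.0174 to 0.0517 for *Rxra*, -0.185 to 0.163 for *Maf*, -0.199 to 0.103 for *C9* and -0.146 to 0.0349 for *Rxrb*. The cause was not tested.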
